A study of Mus musculus with 8 samples.

Results

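The nuclear genes for the proteins of the mitochondrial ribosome were measured in livers of mice fed a high fat diet and given an inhibitor of the microRNA miR-128-3p or a control. Members were the protein-coding genes whose symbol is Mrpl or Mrps followed by a number and at most 1 letter from a to c, each read through the probe set that the array annotation assigns to that gene alone. This gave 73 genes of the 30627 genes measured, of which 19103 were protein-coding. The reference lists 78 such genes, and the other 5 (Mrpl30, Mrpl33, Mrpl48, Mrpl53 and Mrps6) shared their probe set with another gene entry. Each of the 73 genes had 1 probe set.

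The study hybridised 8 whole-transcript arrays, 1 per liver RNA, from male C57BL/6 mice fed a high fat diet for 13 weeks. The 4 control livers came from mice given the control injections, which the labels call control in one place and vehicle in another. The 4 treated livers came from mice given 5 intraperitoneal injections of anti-miR-128-3p. One protocol field names the microRNA itself in place of its inhibitor, and the groups here follow the sample titles. No source used here gives the age of the mice or the chemistry of the inhibitor. The numbered titles speak of mice, but no label says outright that each array is a separate animal, so the p-values measure the spread between these samples.

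The mitochondrial ribosome translates the few proteins that mitochondrial DNA encodes, which are all core subunits of the respiratory chain and of ATP synthase. Its own proteins are encoded in the nucleus, made on cytosolic ribosomes and imported. They join mitochondrially encoded ribosomal RNA in a small subunit, which binds and decodes the messenger RNA, and a large subunit, which forms the peptide bond. Many descend from bacterial ribosomal proteins and others are found only in mitochondrial ribosomes. Liver is rich in mitochondria, which carry out fatty acid oxidation and ketone production there.

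The mature sequence of the inhibited microRNA, from RefSeq (GRCm38.p6), is shown because it is the target of the treatment. It is encoded by Mir128-1 at chr1:128202404-128202424 on the plus strand and by Mir128-2 at chr9:112118644-112118664 on the minus strand. The capitals mark the seed, bases 2 to 8, which pairs with target messenger RNAs.
mmu-miR-128-3p: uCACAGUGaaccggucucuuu

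Values are log2 signals normalised by the authors with RMA. A difference is the mean of the treated livers minus the mean of the control livers on the log2 scale, given with its standard error, and its p-value comes from limma fitted over all genes with Benjamini-Hochberg adjustment. Median gene signals of the arrays lay between 5.04 and 5.12, and pairs of arrays correlated at 0.992 to 0.996 across genes. Mean signals of the members ran from 5.18 to 9.31 with a median of 7.21, and all 73 lay above the median gene. In 29 of the 73 the mean also exceeded 7.38, the 95th percentile of the negative control probe sets, against 18.6% of all genes. Of 12 hepatocyte markers 10 had a probe set of their own, and their control means ran from 10.4 in Asgr1 to 13.9 in Alb, all above that percentile, with a median difference of −0.022.

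No mitochondrial ribosomal protein gene differed between treated and control livers after adjustment over all genes. The smallest adjusted p among the 73 was 0.446, and 0 of all 30627 genes (0%) passed 0.05. Differences were small throughout, from −0.15 in Mrpl34 to 0.24 in Mrpl13, which are 0.904-fold and 1.18-fold. In 59 genes the difference was under 0.1 in size. The 95% confidence intervals of 58 genes lay within 0.25 of no change, and those of all 73 within 0.5.

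Signs were not even. The treated mean was higher in 50 of the 73 genes (68.5%) and lower in 23, where 49.1% of all genes and 45.2% of protein-coding genes were higher. The median difference was 0.020 over the members, −0.0017 over all genes and −0.0078 over protein-coding genes. This count moved with single livers. Without the treated liver of replicate 2 the members with a higher treated mean fell to 31 and the median to −0.015, and without the treated liver of replicate 3 they came to 61 and the median to 0.055. Only Mrpl13 passed an unadjusted p of 0.05 upward and no member passed it downward, where 4.26% of all genes passed upward and 3.37% downward. Mrpl13 was also the only member whose groups did not overlap, higher in the treated livers, and no member was lower without overlap. Over all genes, 2.52% were higher and 1.89% were lower without overlap. These counts of 1 are too small to set apart from the background. Without the treated liver of replicate 3 they came to 7 members past the unadjusted p and 6 without overlap, all higher. In that setting 7.95% of all genes passed the unadjusted p, both directions together. With fewer livers groups fail to overlap more readily, and the share over all genes without overlap was not computed there.

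**Figure D1:**
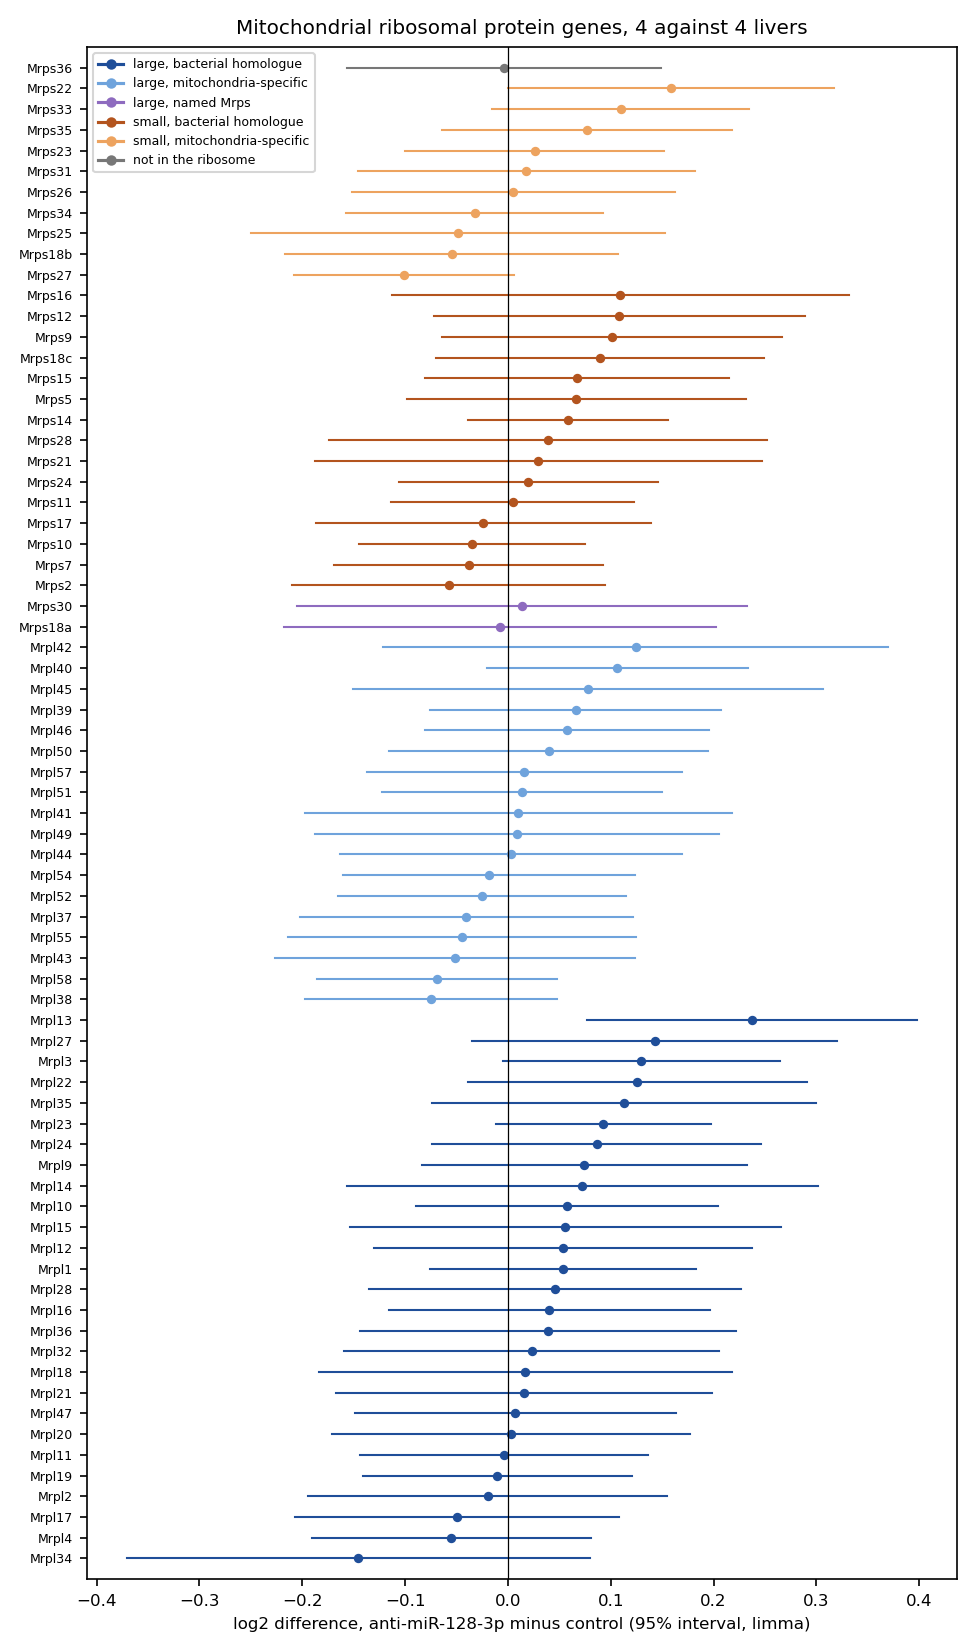
Log2 differences, treated minus control, of the 73 mitochondrial ribosomal protein genes, ordered within classes by difference. Points are the estimates, bars the 95% confidence intervals from limma, and colours the classes. All estimates lie between −0.15 and 0.24, and the interval of Mrpl13 is the only one that leaves out 0.

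Mrpl13, a large-subunit protein with a bacterial homologue, had the largest difference. The control livers read 6.57, 6.46, 6.57 and 6.56, a mean of 6.54 ± 0.06 (SD, n = 4). The treated livers read 6.76, 6.94, 6.60 and 6.82, a mean of 6.78 ± 0.14 (SD, n = 4). Every treated liver was above every control liver, and the treated liver of replicate 3 came closest to the controls. The mean signal over the 8 arrays, 6.66, lay under the 95th percentile of the negative controls, 7.38. The difference was 0.24 ± 0.07 (95% interval 0.08 to 0.40), with an unadjusted limma p of 0.00856 and an adjusted p of 0.446.

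The next genes by p, Mrps22, Mrpl3 and Mrps27, were named after their values were seen. Mrps22 is a small-subunit protein found only in mitochondrial ribosomes, and inherited defects of the human gene impair the respiratory chain. Its control livers read 6.76, 6.70, 6.60 and 6.58, and its treated livers 6.73, 6.996, 6.78 and 6.77. The treated liver of replicate 1 lay below the highest control, and the difference was 0.16 ± 0.07 (limma adjusted p = 0.655). Mrpl3, whose bacterial homologue lies near the peptidyl transferase centre of the large subunit, read 7.05, 7.17, 7.23 and 7.07 in control livers and 7.28, 7.30, 7.15 and 7.32 in treated livers. The groups overlapped through the treated liver of replicate 3, and the difference was 0.13 ± 0.06 (limma adjusted p = 0.673).

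Mrps27, a small-subunit protein of the pentatricopeptide repeat type, had the smallest p among the members with a lower treated mean. Its control livers read 7.30, 7.27, 7.16 and 7.30, and its treated livers 7.14, 7.11, 7.19 and 7.19. The control liver of replicate 3 lay among the treated livers. The difference was −0.10 ± 0.05 (limma adjusted p = 0.685).

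The RefSeq promoter stretches of these 3 genes and of Mrps12 (GRCm38.p6, 250 bases before to 50 after the annotated start) are shown because ETS-family factors such as GABPA, a known activator of nuclear genes for mitochondrial proteins, bind the core marked in capitals. The capitals are CCGGAAG or its reverse complement, and each stretch holds 1 match. Mrps22 lies at chr9:98601630-98601929 on the minus strand, Mrpl3 at chr9:105053018-105053317 on the plus strand, Mrps27 at chr13:99344536-99344835 on the plus strand and Mrps12 at chr7:28741772-28742071 on the minus strand. All are printed 5′ to 3′ on the strand of the gene.
Mrps22: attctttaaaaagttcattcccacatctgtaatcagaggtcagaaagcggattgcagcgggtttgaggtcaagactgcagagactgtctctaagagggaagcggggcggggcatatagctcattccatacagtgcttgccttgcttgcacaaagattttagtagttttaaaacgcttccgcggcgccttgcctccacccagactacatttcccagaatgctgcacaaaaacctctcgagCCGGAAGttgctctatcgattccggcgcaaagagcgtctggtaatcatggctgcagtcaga
Mrpl3: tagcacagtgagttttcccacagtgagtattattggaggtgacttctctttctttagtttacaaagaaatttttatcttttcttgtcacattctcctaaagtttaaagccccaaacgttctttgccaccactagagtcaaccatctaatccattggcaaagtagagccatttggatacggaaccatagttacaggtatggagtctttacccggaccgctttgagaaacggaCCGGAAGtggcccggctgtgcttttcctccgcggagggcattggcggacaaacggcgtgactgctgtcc
Mrps27: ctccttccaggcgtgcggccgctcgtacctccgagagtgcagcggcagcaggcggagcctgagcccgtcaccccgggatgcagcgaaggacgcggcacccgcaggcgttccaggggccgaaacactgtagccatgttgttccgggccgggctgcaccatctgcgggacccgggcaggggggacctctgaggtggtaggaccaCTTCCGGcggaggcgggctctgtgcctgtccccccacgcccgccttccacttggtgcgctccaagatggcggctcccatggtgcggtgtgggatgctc
Mrps12: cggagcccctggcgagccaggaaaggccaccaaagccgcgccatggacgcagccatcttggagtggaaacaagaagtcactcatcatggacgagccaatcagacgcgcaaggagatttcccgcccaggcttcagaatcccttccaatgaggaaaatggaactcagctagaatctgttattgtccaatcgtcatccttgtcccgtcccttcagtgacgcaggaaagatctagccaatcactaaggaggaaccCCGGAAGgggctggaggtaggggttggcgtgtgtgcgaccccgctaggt

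Promoter entries were found for 64 of the 73 genes, and Mrpl13 was among those without one. The 4 stretches shown above all hold the ETS core, while 41 of the 64 genes have no match, so the 4 do not stand for the members. The ETS core CCGGAAG, searched on both strands, stood in at least 1 promoter of 23 of these 64 genes (35.9%), against 9.93% of all 27025 genes with an entry. GCGCATGC, letters of the site of NRF1, stood in 7 of them (10.9%) against 3.05%. AAGATGGC, letters of the site of YY1, stood in 12 (18.8%) against 3.19%. All 3 were searched on both strands, matches of different motifs overlapped in 0 members' promoters, and a match describes letters and not a bound factor. The 27025 genes were not limited to protein-coding or measured genes, as the members are, so the shares compare unlike sets. The median difference was 0.016 in the members with the ETS core and 0.039 in those without it, 0.058 and 0.018 for the NRF1 letters, and 0.014 and 0.028 for the YY1 letters.

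Mrps12, the decoding-site protein of the small subunit, lies head to head with Sars2, which encodes the mitochondrial seryl-tRNA synthetase, and their start sites are 147 bases apart. Mrps12 read 7.63, 7.37, 7.44 and 7.42 in control livers and 7.73, 7.55, 7.42 and 7.59 in treated livers. The groups overlapped widely. The difference was 0.11 ± 0.08 for Mrps12 and 0.01 ± 0.05 for Sars2, both named after their values were seen, and neither passed the test.

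By subunit, 33 of 47 large-subunit proteins and 17 of 25 small-subunit proteins had a higher treated mean, with median differences of 0.017 and 0.026. By origin, 32 of 42 proteins with a bacterial homologue and 17 of 28 mitochondria-specific proteins had a higher treated mean, with medians of 0.043 and 0.0096. The difference between these classes was not tested. The 27 large-subunit proteins with a bacterial homologue split into 21 higher and 6 lower, and held both extremes, Mrpl13 and Mrpl34. The 18 mitochondria-specific proteins of the large subunit split into 11 higher and 7 lower, from −0.08 to 0.12. The 15 bacterial homologues of the small subunit split into 11 higher and 4 lower, from −0.06 to 0.11, and its 10 mitochondria-specific proteins into 6 and 4, from −0.10 to 0.16. Other than Mrpl13, no protein of any class passed an unadjusted limma p of 0.05.

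Among the large-subunit homologues, Mrpl27 lies near the peptidyl transferase centre in bacteria and Mrpl22 lines the exit tunnel. Mrpl27 read 7.76, 7.68, 7.70 and 7.78 in control livers and 7.997, 8.02, 7.80 and 7.68 in treated livers. Its treated liver of replicate 4 was level with the lowest control, and the difference was 0.14 ± 0.08 (limma adjusted p = 0.74). Mrpl22 read 7.07, 7.06, 7.13 and 7.03 in control livers and 7.17, 7.37, 7.02 and 7.24 in treated livers. Here the treated liver of replicate 3 was the lowest of all 8, and the difference was 0.13 ± 0.07 (limma adjusted p = 0.759). Mrpl34 read 6.39, 6.02, 6.38 and 6.36 in control livers and 5.99, 6.21, 6.08 and 6.30 in treated livers. One control liver, replicate 2, sat among the treated ones, and the difference was −0.15 ± 0.10 (limma adjusted p = 0.811). Mrpl23 read 6.68, 6.68, 6.66 and 6.71 in control livers and 6.81, 6.79, 6.68 and 6.82 in treated livers. Apart from the treated liver of replicate 3 its treated livers lay above all controls, and the difference was 0.09 ± 0.05 (limma adjusted p = 0.707). These 4 genes were named after their values were seen.

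Mrpl12 forms the flexible stalk of the large subunit and is also known to bind the mitochondrial RNA polymerase. Its control livers read 7.59, 7.77, 7.66 and 7.59, and its treated livers 7.77, 7.87, 7.50 and 7.69. The treated livers held both the highest and the lowest value, and the difference was 0.05 ± 0.08. Mrpl14, a protein at the interface between the subunits, read 6.85, 7.10, 7.10 and 6.96 in control livers and 7.10, 7.29, 6.82 and 7.09 in treated livers. It again had its highest value in the treated liver of replicate 2 and its lowest in that of replicate 3, with a difference of 0.07 ± 0.10.

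Mrpl42, a mitochondria-specific protein, had both the highest mean signal and the largest spread within groups, and signals of different probe sets do not rank genes by amount. It read 9.16, 9.16, 9.30 and 9.36 in control livers and 9.33, 9.57, 9.07 and 9.52 in treated livers. The treated range enclosed the control range, and the difference was 0.12 ± 0.11. Mrpl45, which anchors the ribosome at the inner membrane where the new proteins are inserted, read 7.02, 6.95, 7.28 and 6.80 in control livers and 7.09, 7.24, 6.98 and 7.05 in treated livers. In this gene the controls spread more widely than the treated livers, and the difference was 0.08 ± 0.10. The other strong signals were those of Mrpl50 (0.04 ± 0.07) and Mrpl39 (0.07 ± 0.06). The weakest were those of Mrpl41 (0.01 ± 0.09), Mrps25 (−0.05 ± 0.09) and Mrpl47 (0.01 ± 0.07), the closest to the median gene of the array at 5.08.

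Some names are at odds with the place of the protein. Mrps30 and Mrps18a carry small-subunit names but sit in the large subunit. Mrps30 read 6.57, 6.73, 6.79 and 6.69 in control livers and 6.73, 6.97, 6.496 and 6.64 in treated livers, a difference of 0.01 ± 0.10. Mrps18a differed by −0.01 ± 0.09. Mrps36 is a subunit of the 2-oxoglutarate dehydrogenase complex of the citric acid cycle. It read 5.87, 5.76, 5.92 and 5.65 in control livers and 5.75, 5.90, 5.77 and 5.77 in treated livers. Its treated values lay inside the control range, and the difference was −0.0034 ± 0.07.

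**Figure D2:**
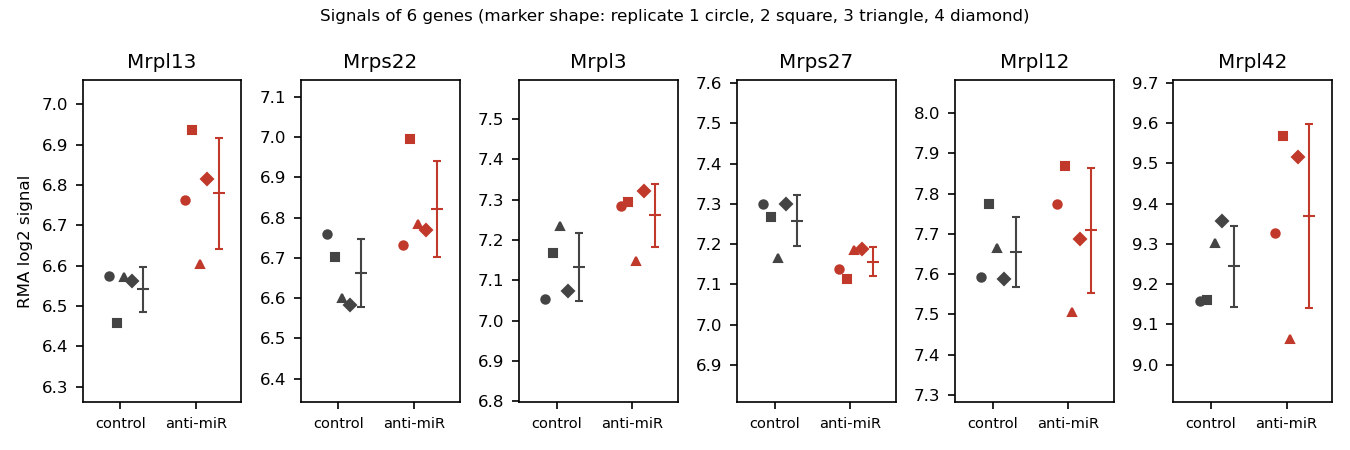
RMA log2 signal of Mrpl13, Mrps22, Mrpl3, Mrps27, Mrpl12 and Mrpl42 in each liver, controls and treated livers side by side, with bars for the mean ± SD (n = 4) and marker shapes for the replicates. In Mrpl13 all 4 treated livers lie above all 4 controls; in the other panels the groups overlap.

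The liver-to-liver pattern was larger than the group difference. Each gene's values were centred on its own mean over the 8 arrays and averaged over the 73 genes. This member score was −0.00, −0.04, 0.01 and −0.02 in the control livers, a mean of −0.01 ± 0.02 (SD, n = 4). It was 0.00, 0.13, −0.10 and 0.02 in the treated livers, a mean of 0.01 ± 0.09 (SD, n = 4). The treated livers of replicates 2 and 3 stood above and below all controls, and the group means differed by less than the spread of the treated livers.

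The treated liver of replicate 2 was the highest of the 8 in 43 of the 73 genes, against 13.1% of the 15313 genes whose mean signal lies above the median. The treated liver of replicate 3 was the lowest in 27 of the 73 members, against 15.0% of those genes, and the highest in none. Replicate 2 exceeded replicate 3 in 72 of the 73 members and in 55.0% of the genes above the median. Mrps27 was the exception. The median gap between these livers was 0.22 over the members, with a range of −0.07 to 0.50, and 0.022 over the genes above the median. The spread was larger among treated than control livers in 50 of the 73 members, against 49.8% of the genes above the median. The median SD of the members was 0.084 in controls and 0.111 in treated livers.

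**Figure D3:**
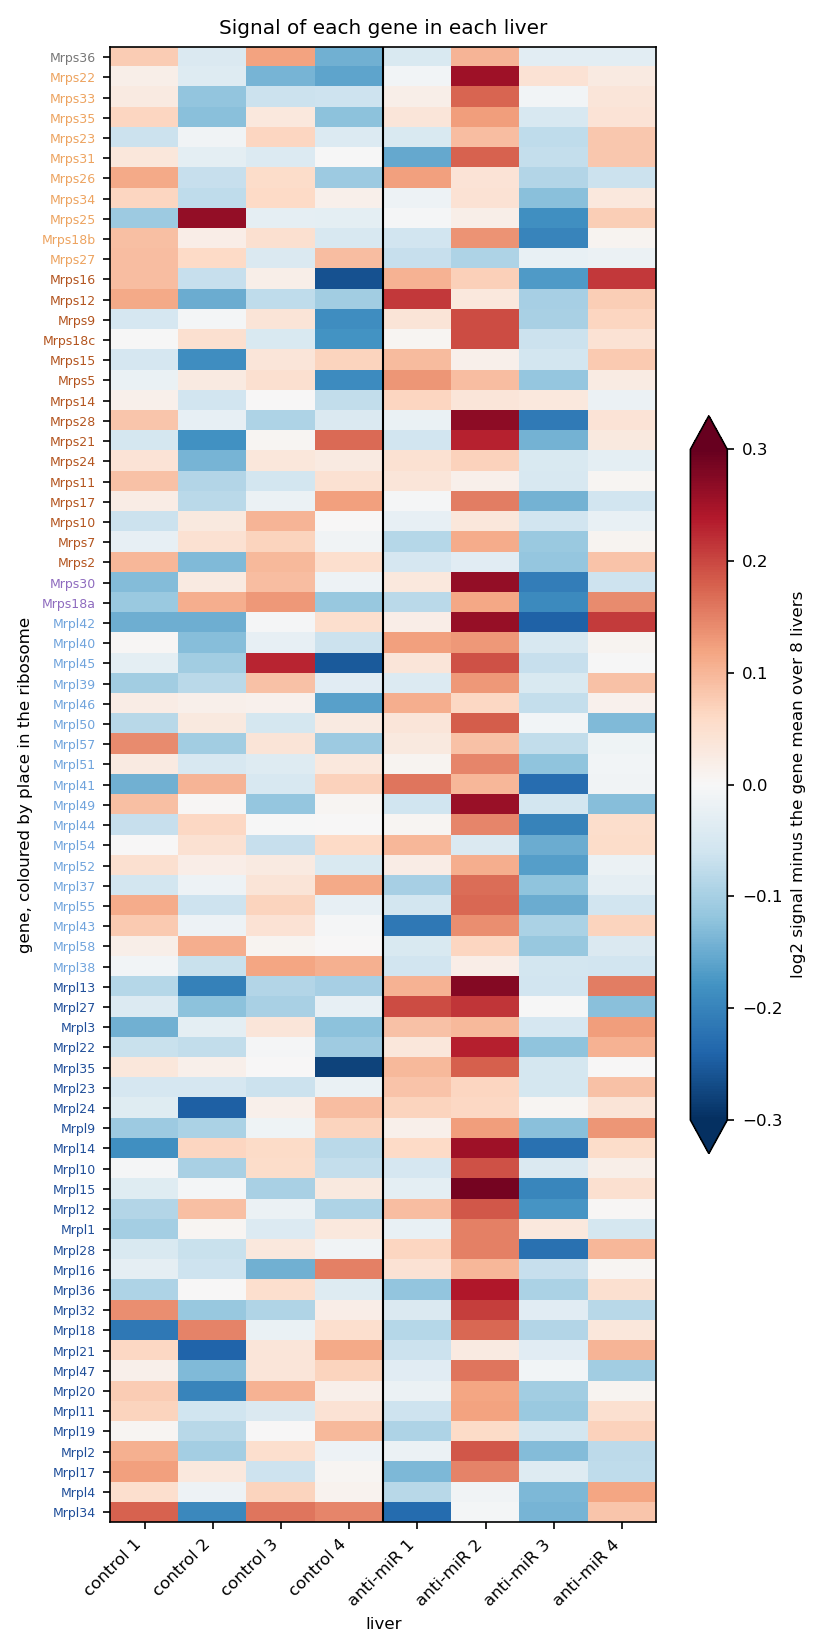
Heat map of the 73 genes (rows, grouped by class) in the 8 livers (columns), each gene centred on its mean over the 8 arrays in log2 units, with colours saturating at 0.3 to either side. The column of treated replicate 2 is mostly above the mean and that of treated replicate 3 mostly below it.

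Members rose and fell together across livers. Among the 2628 pairs of members the median correlation over the 8 arrays was 0.38, and 84.6% of pairs were above 0. These points share arrays and normalisation. Against the score of the other 72 members, Mrpl22 had the highest correlation at 0.91 and Mrps27 the lowest at −0.50. The next lowest was 0.15. Among 15241 other genes above the median signal, the profiles most like the member score over the 8 arrays were those of Eif3i (r = 0.98), Cdk10 (r = 0.98) and Uqcr10 (r = 0.98), which encode a translation initiation factor subunit, a kinase and a subunit of respiratory complex III.

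Several other lists of nuclear genes for mitochondria also had these livers at their extremes, while the order of the livers between them differed. The score of 90 respiratory chain genes was 0.12 in the treated liver of replicate 2 and −0.12 in that of replicate 3. It was 0.11 and −0.11 for 15 mitochondrial translation factors, and 0.07 and −0.09 for 19 mitochondrial aminoacyl-tRNA synthetases. The pattern was not seen in every list. The 8 regulators of mitochondrial biogenesis scored 0.02 in replicate 2 and 0.10 in replicate 3, their highest liver. In that liver Ppargc1a read 8.06 against its mean of 7.30 over the 8 arrays. The 11 mitochondrial stress response genes scored −0.01 and −0.02, with 0.11 in the treated liver of replicate 1. There Asns read 6.45 against its mean of 5.43. Both high scores lean on these single genes and do not describe the whole lists. Several lists of cell type markers also differed between the treated livers of replicates 2 and 3. Cholangiocyte markers, all 5 measured, were level at −0.11 in replicate 2 and −0.10 in replicate 3. Lymphocyte markers scored −0.05 and 0.01. Erythroid markers, 2 of 6 measured, scored 0.13 and −0.18, the same direction as the members. Stellate cell markers, all 8 measured, scored −0.09 in replicate 2 and 0.85 in replicate 3, with treated livers from −0.09 to 0.85 and controls from −0.37 to −0.14. These markers did not move together, as 5 had a higher treated mean and 3 a lower one. The largest differences were those of the collagen genes Col1a1 (1.62), Col1a2 (1.45) and Col3a1 (1.22). Des (0.12) and Pdgfrb (0.11) were higher by less, and Reln (−0.29), Dcn (−0.10) and Lrat (−0.06) were lower. Macrophage markers, all 10 measured, scored −0.30 and 0.35, with treated livers from −0.30 to 0.85 and controls from −0.93 to 0.02. Endothelial markers, all 8 measured, scored −0.21 and 0.11, with treated livers from −0.31 to 0.11 and controls from −0.22 to 0.32. Of these 8, 7 had a lower treated mean and 3 of them an unadjusted limma p under 0.05, where 3.37% of all genes passed downward. Neutrophil markers scored 1.80 in the control liver of replicate 1, above the −0.49 to −0.01 of the other livers. The hepatocyte marker score was −0.02 in replicate 2 and 0.04 in replicate 3, with treated livers from −0.075 to 0.041 and controls from −0.009 to 0.05. Of the 10 measured, 7 had a lower treated mean and 3 a higher one. Only Hnf4a (−0.24) had an unadjusted limma p under 0.05. The part of other cell types in the pattern was not tested, and in whole liver fewer cells of a type and less RNA per cell cannot be told apart.

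**Figure D4:**
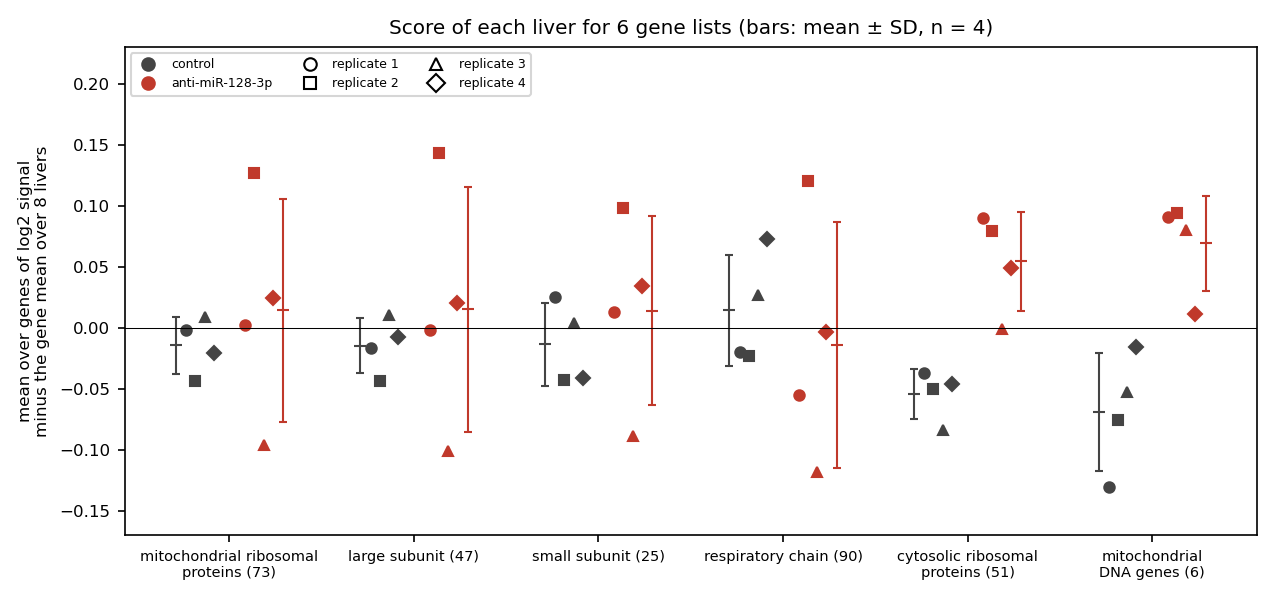
Scores of gene lists in each liver: the mean over a list's genes of the log2 signal centred on the gene's mean over 8 arrays, with bars for the mean ± SD (n = 4). Treated replicate 2 is highest and treated replicate 3 lowest for the mitochondrial ribosomal proteins (0.13 and −0.10) and the respiratory chain genes (0.12 and −0.12).

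Gene lists around the mitochondrial ribosome held 0 genes that passed the adjusted limma test. The lists were chosen with earlier results of these data known, and their counts describe these libraries. Of 4 mitoribosome proteins with other names, 2 were higher and 2 lower, and Chchd1 had the smallest p (0.23, limma adjusted p = 0.616). Of 25 genes for assembly of the ribosome and modification of its RNA, 9 were higher and 16 lower (median −0.024), and the pseudouridine synthase family gene Rpusd3 had the smallest p (−0.24, limma adjusted p = 0.525). Of the 15 translation factors 4 were higher and 11 lower (median −0.037), and of the 19 synthetases 5 and 14 (median −0.053). Of 15 genes for transcription and RNA processing of mitochondrial DNA, 4 were higher and 11 lower (median −0.041). Trmt10c, a subunit of mitochondrial RNase P, had its highest treated value below its lowest control value (−0.16, limma adjusted p = 0.542), and Tfb2m, the transcription initiation factor, differed by −0.18. No test compared the members with these lists.

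Respiratory chain genes and the genes of the cytosolic ribosome were set beside the members. Of the 90 respiratory chain genes 38 were higher and 52 lower (median −0.020). The pattern that chose them also took assembly factors, and the 82 without those split into 33 and 49. Of 51 genes matching the symbols of cytosolic ribosomal proteins, 40 were higher and 11 lower (median 0.11). Of these 51, 19 passed an unadjusted limma p of 0.05 upward and none downward. Over all genes, 4.26% passed it upward and 3.37% downward. That symbol pattern also took kinases, protein-coding genes with pseudogene names, and Rps19bp1, which encodes a binding partner of a ribosomal protein. Of the 42 left without them 35 were higher (median 0.13) and 18 passed upward. These 42 still held genes with related names, such as Rpl3l and Rpl10l. The score of the 42 separated the groups, from −0.10 to −0.04 in controls and from 0.00 to 0.09 in treated livers, which the member score did not.

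Mitochondrial DNA itself supplies the RNA of the ribosome and its messages. Its genes were added after the data were seen, and 6 ribosomal RNA or protein genes had a probe set of their own. All 6 had a higher treated mean, with a median difference of 0.11. Their score ran from −0.13 to −0.02 in controls and from 0.01 to 0.09 in treated livers, without overlap. The probe set that mt-Rnr2, the RNA of the large subunit, shares with ND1 differed by 0.10, with no test. The RNA of the small subunit, mt-Rnr1, read 13.30, 13.45, 13.30 and 13.40 in control livers and 13.52, 13.41, 13.52 and 13.42 in treated livers, and the groups overlapped. ND2, a subunit of complex I, read 12.34, 12.31, 12.59 and 12.48 in control livers and 12.76, 12.62, 12.74 and 12.69 in treated livers. Its groups did not overlap, and the difference was 0.27 ± 0.07 with an unadjusted limma p of 0.00348 and an adjusted p of 0.342. The probe set of the lysine tRNA gene mt-Tk, not in this list, read 5.81, 7.71, 7.58 and 6.80 in control livers and 7.95, 8.41, 8.05 and 7.77 in treated livers. Its groups did not overlap, the controls spread widely, and the means differed by 1.07, with no test. The treated liver of replicate 3 scored 0.08 for these 6 genes and that of replicate 2 scored 0.09, and the gap seen between these livers in the members was not present in this score.

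The probe sets of the 5 genes left out for sharing differed by 0.08 for Mrpl30, −0.03 for Mrpl33, 0.15 for Mrpl48, −0.05 for Mrpl53 and −0.03 for Mrps6. The probe set of Mrpl48 ran from 6.23 to 6.37 in control livers and from 6.40 to 6.5 in treated livers, without overlap, and it is assigned to 2 gene entries. The probe set of Mrpl33, assigned to 3 entries, did not overlap in the other direction, at 4.51 in every control liver and from 4.46 to 4.49 in treated livers, which is below the median gene. Over all genes, 2.52% were higher and 1.89% lower without overlap, and these shared probe sets were not tested.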

How the data were processed

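Mouse liver RNA was hybridised to 8 Affymetrix whole-transcript arrays. The authors normalised the deposited log2 signals with RMA, per the submitters' processing notes; no version was given there. Of 72688 rows, 6732 were control probe sets. Probe sets were named through the platform annotation with symbols updated from RefSeq (GRCm38.p6), and 31080 of 32750 annotated probe sets named 1 gene. For each of 30627 genes the probe set with the highest mean was kept, with no filter on dim genes.

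Groups were compared with limma 3.58.1 (lmFit and eBayes, R 4.3.3), 4 arrays against 4, no covariate, two-sided, Benjamini-Hochberg over all 30627 genes at 0.05. The number of arrays limits the precision. Tables and plots were made with Python 3.11.15, pandas 2.3.3 and matplotlib 3.10.9, and the fit was tested on simulated data. No batch or scan date is given in the sources used here. The members, lists and tests were chosen with earlier results of these data known. Named members were those whose groups do not overlap or whose unadjusted p is under 0.05, the 3 highest and the 3 lowest in signal, the 3 most variable, Mrps36, Mrps30, Mrps18a and Mrpl12. Genes outside the members were the 3 of smallest p in a related list, of which those printed are part, and the 3 profiles most like the member score. Others are said to have been named after their values were seen. Alternatives were robust moderation, array weights, filters on dim genes, averaged probe sets, quantile normalization, median centring, a replicate block and each array left out.

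Replicate numbers were not taken to pair the samples. Deviations of same-numbered control and treated livers from their group means correlated at −0.04, −0.04, −0.11 and −0.15 across genes at or above the median signal. Over the members the correlations were 0.03, 0.19, −0.12 and 0.03. Such values do not settle whether the samples are paired.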

Additional observations from a re-analysis of the deposited data

Results flagged for a closer look

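In 9 of 148 sets of 4 livers (6.08%; each of the 73 genes and their score, in each group), 1 liver stood apart from the other 3 by a gap large against the range of the set. Chance flags about 1 in 20 such sets, so this number of flags is near that level, and no explanation was weighed. The control liver of replicate 2 stood low for Mrpl13 (6.459, the others 6.561 to 6.575), Mrpl34 (6.025, the others 6.363 to 6.394) and Mrps24 (8.271, the others 8.437 to 8.451), and high for Mrpl58 (8.12, the others 8.013 to 8.028), which encodes a peptidyl-tRNA hydrolase of the large subunit. The control liver of replicate 4 stood low for Mrpl35 (6.4, the others 6.679 to 6.711) and Mrpl46 (6.069, the others 6.245 to 6.255). Among treated livers, replicate 2 stood high for Mrpl38 (8.161, the others 8.084 to 8.087) and Mrps36 (5.9, the others 5.753 to 5.768), and replicate 3 stood low for Mrpl23 (6.678, the others 6.794 to 6.817).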

How the results depend on the processing

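No member passed the adjusted limma p in any setting, and the smallest member value ranged from 0.244 without the treated liver of replicate 3 to 0.765. Mrpl13 stayed higher in the settings run. The count of members past an unadjusted limma p of 0.05 rose to 2 upward with array weights (Mrps22 added) and to 2 with quantile normalization (Mrpl3 added), and centring on array medians gave 1 downward (Mrps27). Over all genes 8.41%, 8.07% and 7.39% passed it in these settings, both directions together. Small differences changed sign: with array weights Mrpl47 came to −0.0184 and Mrps30 to −0.0116; with quantile normalization Mrpl41 to −2e-04, Mrpl47 to −0.0145, Mrps30 to −0.0037 and Sars2 to −0.0095; with median centring Mrpl41 to −0.0013, Mrpl47 to −0.0042 and Sars2 to −0.0062. The cause was not tested.

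Leaving out each liver in turn gave 1 to 7 members past the unadjusted p upward and 0 to 1 downward, 1 to 6 higher and 0 to 1 lower without overlap, 31 to 61 with a higher treated mean, and a median of −0.0148 to 0.0554. Over all genes 5.61% to 8.52% passed the unadjusted p in these settings, both directions together. The share of all genes without overlap was not computed for them. Ranges that crossed or touched 0 were −0.0148 to 0.09 for Mrpl50, −0.0413 to 0.0886 for Mrpl41, −0.0926 to 0.0309 for Mrps25, −0.0448 to 0.0435 for Mrpl47, 0.00 to 0.159 for Mrpl14, −0.0523 to 0.0361 for Mrps36, −0.0722 to 0.0848 for Mrps30, −0.0558 to 0.055 for Mrps18a, −0.0234 to 0.038 for Mrps24, −0.1372 to 0.0053 for Gadd45gip1, −0.0107 to 0.0867 for Eif3i, −0.018 to 0.107 for Cdk10, −0.0575 to 0.1875 for Uqcr10 and −0.02 to 0.0356 for Sars2. Leaving out the treated livers of replicates 2 and 3 together, chosen after seeing the data, gave 3 members past the unadjusted p upward (Mrpl13, Mrpl23 and Mrpl3), 8 higher and 2 lower without overlap, 43 with a higher treated mean and a median of 0.0229. In that setting 8.87% of all genes passed the unadjusted p, both directions together. So few treated livers fail to overlap with the controls far more readily, so these counts without overlap cannot be set against the main ones.

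With the replicate number as a block, 1 member passed the unadjusted p upward, the median stayed 0.0198 and the smallest adjusted p was 0.618. Over all genes 7.35% passed the unadjusted p with the block, both directions together. Each member has 1 probe set, so averaging probe sets left the members' values as they were. Of 471 values of 59 genes under the other settings, 462 kept their direction and side of the threshold. This count says little, because robust moderation, the filters on dim genes and the replicate block cannot change a difference. The 9 reversals all came with array weights, quantile normalization or median centring. No gene of the array passed the adjusted limma p in these settings, so none could change sides. Signals of 44 members lay under the 95th percentile of negative controls, which limits what small differences there can show. Mrpl13, Mrps22, Mrpl3 and Mrps27, the members of smallest p, were among them.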
